A study of Mus musculus with 12 samples.

Results

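The matrix metalloproteinases (MMPs) and their tissue inhibitors (TIMPs) were followed across 3 *Gpr124* genotypes as 10 named genes, *Mmp2*, *Mmp9*, *Mmp11*, *Mmp14*, *Mmp15*, *Mmp25* and *Timp1* to *Timp4*, out of 49315 genes in the count files. The genes were matched by Ensembl identifier, with symbols from GENCODE vM21. The group was chosen by its measured values in part, because *Mmp2* was picked for being higher in both mutants, so the values of *Mmp2* against wild type are given as a description with no test. The other 9 were listed with earlier results of these data known. All 10 were among the 16637 genes that passed the filter on low counts.

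The libraries were made from CD31+ endothelium of mouse forebrains at E15.5, purified by FACS with cells positive for CD140b, CD45 or 7-AAD gated out. There were 4 wild-type (WT) embryos, 4 *Gpr124ΔC/ΔC* embryos and 4 *Gpr124-/-* embryos, with 1 library per embryo. *Gpr124ΔC/ΔC* embryos are homozygous for an allele made by CRISPR/Cas9, in which a V5 tag and a stop codon before the intracellular domain truncate the receptor, and *Gpr124-/-* embryos are homozygous for a lacZ null allele. Each allele is present in every cell of the embryo, so the sorted endothelium was not the only tissue affected. RNA was amplified with an ultra-low input SmartSeq kit and read as bulk RNA-seq, in which fewer cells of a type and less RNA per cell cannot be told apart.

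MMPs are zinc-dependent endopeptidases that are made as inactive precursors and cut collagens, laminins and other proteins of the extracellular matrix and basement membrane. Secreted MMPs diffuse or bind to matrix, whereas membrane-type MMPs act at the cell surface, and TIMPs bind the active site of MMPs and block it. In one well known arrangement, TIMP2 bridges the membrane-type protease MMP14 to the precursor of MMP2, and a second MMP14 molecule then cuts and activates MMP2. GPR124 is an endothelial adhesion receptor that, with RECK, promotes WNT7 signaling in brain vessels, and RECK is itself a membrane-anchored inhibitor of MMPs.

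*Adgra2*, the symbol of *Gpr124* in the files, ranged from 28.3 to 51.1 TPM (transcripts per 1000000) in WT, from 34.1 to 63.4 in *Gpr124ΔC/ΔC* and from 4.03 to 6.29 in *Gpr124-/-*, which fits the labels. The total count per library ran from 13877572 to 22551163. Embryo labels begin with a letter whose meaning the labels do not give. Letters J and L held WT and *Gpr124ΔC/ΔC* embryos, letter K held 1 WT and 1 *Gpr124-/-* embryo, and letter M held the other 3 *Gpr124-/-* embryos. The RNA of 1 gene, *Gm23935*, took 12.5% of TPM in WT JE6 and 14.1% in *Gpr124ΔC/ΔC* JE3 against 1.22% to 3.04% in the other libraries, which lowers the TPM of other genes there. Fold changes were therefore taken from counts.

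The 8 endothelial markers summed to between 2871 and 4618 TPM in every library. The 8 neutrophil markers summed to at most 13.9 TPM (KE4, *Gpr124-/-*), and 5 of them stayed under 1 TPM in all 12 libraries. Only 1 of the 8, *Ltf*, was tested, and it was called lower in *Gpr124-/-* against WT, beside 4.21% of all genes. Pericyte markers summed to 37.6 to 87.6 TPM in WT, 19.2 to 39.5 in *Gpr124ΔC/ΔC* and 37.5 to 46.4 in *Gpr124-/-*. Of the 8 genes of this list, *Rgs5* and *Abcc9* were called in *Gpr124-/-* against WT, 1 higher and 1 lower. *Higd1b* was called lower in *Gpr124ΔC/ΔC* against WT, and *Kcnj8* and *Abcc9* higher in *Gpr124-/-* than in *Gpr124ΔC/ΔC*. Fibroblast markers summed to 13.3 to 14.9 TPM in 3 WT libraries and to 68.8 in WT KE8, against 9.22 to 19.0 in *Gpr124ΔC/ΔC* and 13.0 to 15.8 in *Gpr124-/-*. The 4 smooth muscle markers, of which *Myh11* and *Cnn1* stayed under 1 TPM in all libraries, summed to 2.01 to 2.99 TPM in WT, 1.57 to 10.8 in *Gpr124ΔC/ΔC* and 3.55 to 11.5 in *Gpr124-/-*, the last above the WT range, with no gene of the list called. The 7 markers of neurons and progenitors summed to 70.7 to 155 TPM in WT, 106 to 159 in *Gpr124ΔC/ΔC* and 128 to 162 in *Gpr124-/-*. The 6 erythroid markers summed to 6652 to 11198 TPM in WT, 5338 to 9644 in *Gpr124ΔC/ΔC* and 17611 to 52519 in *Gpr124-/-*. The 6 platelet markers summed to 262 to 525 TPM in WT, 365 to 500 in *Gpr124ΔC/ΔC*, 545 in *Gpr124-/-* KE4 and 1175 to 1688 in the 3 libraries of letter M. Macrophage and microglia markers summed to 5.51 to 9.86 TPM in WT, 11.3 to 12.1 in *Gpr124ΔC/ΔC* and 26.3 to 40.3 in *Gpr124-/-*. Only 2 of these 8 genes were tested, and 1 of the 2, *P2ry12*, a microglial marker that platelets also express, was called higher in *Gpr124-/-*. The part of these cells in the results below was not tested, except where a value is given.

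**Figure D1:**
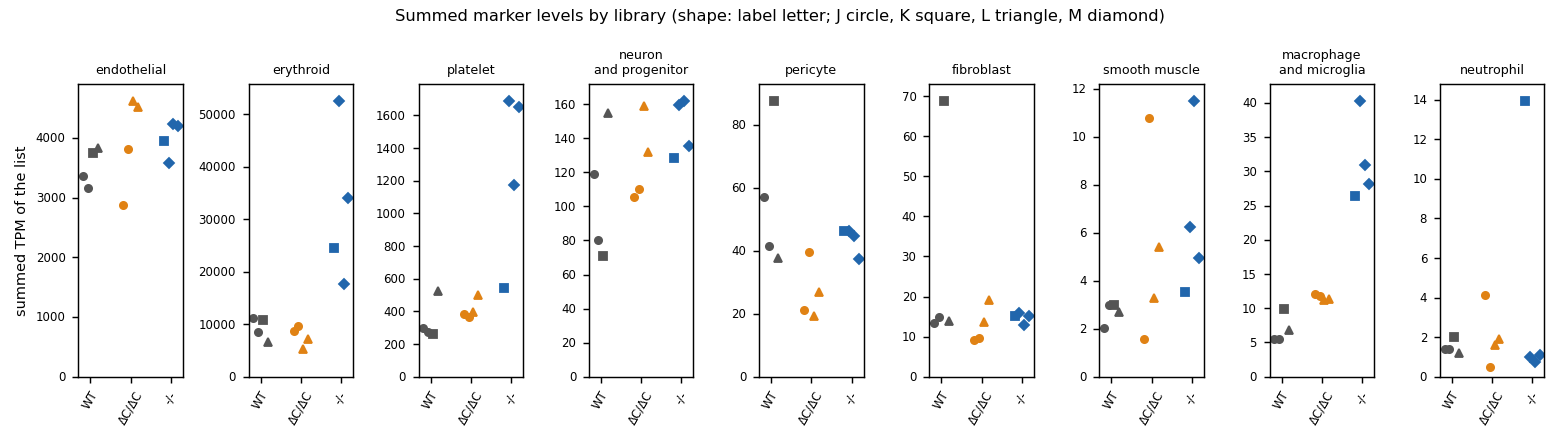
Summed TPM of 9 lists of cell type markers in each of the 12 libraries, by genotype, on linear axes from 0. Erythroid and platelet sums stood above the WT range in all 4 *Gpr124-/-* libraries, while pericyte and fibroblast sums of the mutants did not exceed the WT maximum.

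The upstream sequence of 8 of the 10 genes was found in the RefSeq promoter table, with *Mmp2* and *Mmp9* missing. The 250 bases before the RefSeq start are shown for *Mmp14* and *Timp3*, which were higher in *Gpr124-/-*, for *Mmp25*, which moved the opposite way, and for *Timp1*, which passed no test. The starts are those of RefSeq, and that of *Timp3* lies 40 bases inside the gene as the count files give it, so the last bases of its window, the GC box among them, are within that gene. Of the windows not shown, the starts of *Mmp15* and *Timp2* lie 28 and 329 bases inside. All are written 5′ to 3′, and capitals mark the matches found.
Mmp14, chr14:54431348-54431597 of GRCm38.p6, plus strand: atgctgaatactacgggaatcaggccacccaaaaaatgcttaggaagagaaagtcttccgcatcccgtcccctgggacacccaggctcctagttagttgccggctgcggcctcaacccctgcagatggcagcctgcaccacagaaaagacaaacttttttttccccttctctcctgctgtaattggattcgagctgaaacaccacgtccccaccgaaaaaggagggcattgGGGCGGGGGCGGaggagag
Timp3, chr10:86300162-86300411 of GRCm38.p6, plus strand: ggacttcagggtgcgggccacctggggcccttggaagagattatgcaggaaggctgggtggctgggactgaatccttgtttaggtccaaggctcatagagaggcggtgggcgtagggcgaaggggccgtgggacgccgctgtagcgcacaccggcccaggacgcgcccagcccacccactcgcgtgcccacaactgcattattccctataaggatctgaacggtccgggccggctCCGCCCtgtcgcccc
Mmp25, chr17:23645270-23645519 of GRCm38.p6, minus strand: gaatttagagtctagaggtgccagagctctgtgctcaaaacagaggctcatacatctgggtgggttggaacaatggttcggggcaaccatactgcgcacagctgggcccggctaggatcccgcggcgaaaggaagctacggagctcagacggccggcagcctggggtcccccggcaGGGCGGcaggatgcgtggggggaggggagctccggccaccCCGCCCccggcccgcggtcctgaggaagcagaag
Timp1, chrX:20869916-20870165 of GRCm38.p6, plus strand: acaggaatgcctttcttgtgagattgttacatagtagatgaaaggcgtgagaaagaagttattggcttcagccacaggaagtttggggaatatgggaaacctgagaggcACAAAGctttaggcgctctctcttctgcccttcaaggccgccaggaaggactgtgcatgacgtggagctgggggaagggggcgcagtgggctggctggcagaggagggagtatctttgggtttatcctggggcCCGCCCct
The motifs searched were the TCF/LEF core, CTTTGA or CTTTGT, the AP-1 site, TGANTCA, and the GC box, GGGCGG, each on both strands and with overlaps allowed. A TCF/LEF core was found in 1 of the 8 windows, that of *Timp1*, against 27.6% of 32851 RefSeq windows of the same length. No AP-1 match was found in the 8, against 6.75% of all windows. A GC box was found in 7 of the 8, all but *Timp4*, against 32.7% of all windows. The GC content of the 4 sequences above was 55.2%, 65.6%, 66.0% and 54.4%, against a median of 52.4%. A window without a match shows only that these letters are not in it.

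Genotypes were compared by the quasi-likelihood test of edgeR, and every adjusted p is a Benjamini-Hochberg value over the 16637 genes. Calls needed an adjusted p below 0.05 together with a log2 fold change beyond 1 in either direction. Since *Mmp2* was chosen for its difference from WT, counts were taken over the other 9 genes, which were themselves listed with results in view. In *Gpr124-/-* against WT, 4 of the 9 were called higher (*Mmp14*, *Mmp15*, *Timp2* and *Timp3*) and 2 lower (*Mmp25* and *Mmp9*), beside 5.67% and 4.21% of all genes tested. With the label letter as a term 2 of the 9 were called, beside 846 of all genes in either direction, against 1644 without that term. Letter M held no other genotype, so this fit and one without the 3 libraries of letter M both rest the *Gpr124-/-* value on 1 library, KE4. The letter term sets KE4 against the 1 WT library of letter K, KE8, and a call lost under either fit is not read as a smaller change. For *Mmp14*, for instance, the letter term gave 0.90, the difference within K. In *Gpr124ΔC/ΔC* against WT edgeR and DESeq2 called none of the 9, beside 0.89% of all genes called higher and 1.03% lower, and 4 had an unadjusted edgeR p under 0.05. Between the mutants, edgeR and DESeq2 called none of the 9 and 4 had an unadjusted edgeR p under 0.05, while *Mmp2* was called higher in *Gpr124-/-*, beside 2.67% and 1.94% of all genes. The median log2 fold change of the 9 was 0.27 in *Gpr124-/-*, 0.15 in *Gpr124ΔC/ΔC* and 0.06 between the mutants, against -0.01, 0.01 and -0.02 over all genes.

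At an adjusted p under 0.05 without the fold threshold, the counts were 6 of 9 in *Gpr124-/-* against WT, 2 of 9 in *Gpr124ΔC/ΔC* against WT (*Timp3* higher, *Mmp25* lower) and 2 of 9 between the mutants (*Mmp14* higher, *Mmp25* lower), beside 19.8%, 4.09% and 8.82% of all genes. CPM (counts per 1000000) of the groups did not overlap for 6, 3 and 4 of the 9 genes in the same 3 comparisons, beside 22.9%, 11.3% and 13.9% of all genes.

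**Figure D2:**
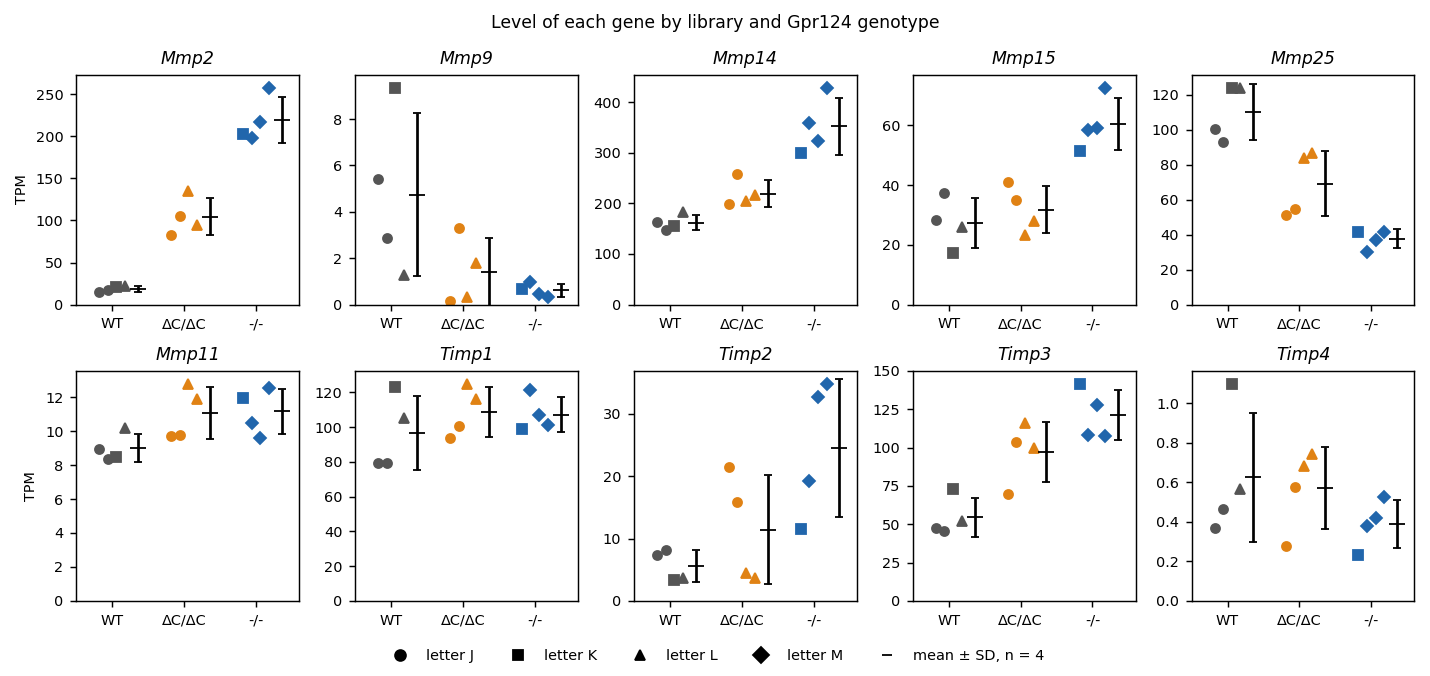
TPM of each of the 10 genes in each library, by genotype, with the mean and SD of 4 libraries at the right of each group and the letter of the embryo label as the shape. *Mmp2* lay at 14.4 to 22.4 in WT, 82.9 to 134.5 in *Gpr124ΔC/ΔC* and 198 to 258 in *Gpr124-/-*, and *Mmp25* fell in the opposite order; the lower SD bar of *Mmp9* in *Gpr124ΔC/ΔC* is cut at 0.

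*Mmp2* encodes gelatinase A, a secreted protease that cuts denatured collagen and type IV collagen. The gene (ENSMUSG00000031740) spans bases 92827291 to 92853420 of chromosome 8 in GRCm38, plus strand. It was at 14.4, 17.0, 20.5 and 22.4 TPM in the WT libraries JE1, JE6, KE8 and LE6. In *Gpr124ΔC/ΔC* it was at 82.9, 106, 134.5 and 94.5 TPM in JE3, JE4, LE2 and LE5, and in *Gpr124-/-* at 203, 198, 217 and 258 TPM in KE4, ME1, ME4 and ME5. The 3 groups were fully separated, with every mutant library above every WT library and every *Gpr124-/-* library above every *Gpr124ΔC/ΔC* library. Group means were 18.6 ± 3.56, 104 ± 22.1 and 219 ± 27.3 TPM (SD, n = 4 each). The log2 fold change from counts was 2.40 (SE 0.15) in *Gpr124ΔC/ΔC* and 3.52 (SE 0.16) in *Gpr124-/-*, which is 5.30-fold and 11.5-fold. These 2 values chose the gene.

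The comparison of the mutants with each other was not named in that choice, although it uses the same mutant libraries. *Mmp2* was higher in *Gpr124-/-* than in *Gpr124ΔC/ΔC* by 1.12 on the log2 scale (95% interval 0.80 to 1.44, edgeR adjusted p = 0.000698). With the label letter as a term this difference was 0.85 with an adjusted p of 0.274, and without the 3 libraries of letter M it was 0.95 with an adjusted p of 0.213. Within letters, *Mmp2* stood above WT by 2.52 in J, 2.22 in L (both *Gpr124ΔC/ΔC*) and 3.25 in K (*Gpr124-/-*) in mean log2 CPM. The K embryo of *Gpr124-/-*, KE4, had an *Mmp2* TPM within the range of the other 3 and marker sums of 545 TPM for platelets, 24515 for erythroid cells, 26.3 for macrophages and microglia and 13.9 for neutrophils, each above the highest WT library.

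*Mmp9* encodes gelatinase B, the other gelatinase, which neutrophils store and many activated cells secrete. Its TPM was 5.40, 2.89, 9.36 and 1.29 in WT, 0.138, 3.32, 0.316 and 1.78 in *Gpr124ΔC/ΔC*, and 0.684, 0.954, 0.468 and 0.324 in *Gpr124-/-*. These values rest on 30 to 220 reads per WT library, 3 to 55 in *Gpr124ΔC/ΔC* and 7 to 18 in *Gpr124-/-*. The *Gpr124-/-* libraries all lay below the WT range, and 2 of 4 *Gpr124ΔC/ΔC* libraries lay within it. The gene passed the filter with all 4 WT libraries but 2 of 4 in each mutant at or over the filter's CPM minimum. *Ltf*, the 1 tested neutrophil marker, was also called lower in *Gpr124-/-*, while the neutrophil sum was highest in *Gpr124-/-* KE4. The part of neutrophils was not tested. In *Gpr124-/-*, *Mmp9* fell by 3.0 as a log2 fold change (SE 0.80, edgeR adjusted p = 0.0177), whereas its log2 fold change in *Gpr124ΔC/ΔC* was -1.88 (SE 0.74, adjusted p = 0.238). The call in *Gpr124-/-* was lost in 7 of 24 alternatives. These were the fits without WT KE8 (-2.47, adjusted p = 0.0536), without ME4 (-2.87, 0.0568) and without ME5 (-2.79, 0.058), limma at a pseudocount of 0.1 (-2.52, 0.0738) and unfiltered (-1.63, 0.0797), the letter as a term (-3.81, 0.11) and the fit without letter M (-2.88, 0.496).

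*Mmp14* encodes MT1-MMP, a transmembrane collagenase and the main activator of MMP2, and was the most abundant of the 10 genes in every genotype. It lies on the plus strand of chromosome 14 from 54431612 to 54441265. Its TPM was 163, 147, 156 and 182 in WT, 199, 258, 206 and 216 in *Gpr124ΔC/ΔC*, and 300.1, 359, 323 and 429 in *Gpr124-/-*. No 2 genotypes overlapped. *Mmp14* rose by 1.09 in *Gpr124-/-* against WT on the log2 scale (SE 0.13, edgeR adjusted p = 7.67e-05), 2.13-fold. It was also higher in *Gpr124-/-* than in *Gpr124ΔC/ΔC*, by 0.73 (SE 0.13, adjusted p = 0.00478). In *Gpr124ΔC/ΔC* against WT the log2 fold change was 0.36 (SE 0.13), which did not pass over all genes (adjusted p = 0.187) although the libraries did not overlap. The rise in *Gpr124-/-* stayed significant in each alternative but went below the fold threshold without ME5 (0.98), with the letter as a term (0.90) and without letter M (0.78), and the difference between the mutants was lost with that term (0.56, adjusted p = 0.514) and without letter M (0.43, adjusted p = 0.577).

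*Mmp15* encodes MT2-MMP, a transmembrane relative of MMP14 that can also activate MMP2. It lies 2.52 Mb from *Mmp2* on chromosome 8, from 95352268 to 95375080 on the plus strand. Its TPM was 28.4, 37.5, 17.3 and 25.8 in WT, 41.0, 34.9, 23.3 and 27.8 in *Gpr124ΔC/ΔC*, and 51.6, 58.5, 59.1 and 72.6 in *Gpr124-/-*. The WT and *Gpr124ΔC/ΔC* libraries overlapped, and all 4 *Gpr124-/-* libraries lay above them. *Mmp15* rose by 1.09 in *Gpr124-/-* (SE 0.27, edgeR adjusted p = 0.0124), while in *Gpr124ΔC/ΔC* its log2 fold change was 0.15 (95% interval -0.43 to 0.74, adjusted p = 0.913). Between the mutants it was 0.94 with an adjusted p of 0.0501, and it passed in 11 of 24 alternatives, among them DESeq2 (0.95, adjusted p = 0.0103). The rise in *Gpr124-/-* was 0.92 without WT KE8 and 0.98 without ME5, under the fold threshold, and it was lost without letter M (0.79, adjusted p = 0.507).

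*Mmp25* encodes MT6-MMP, a membrane-type protease held by a lipid anchor and best known from leukocytes. It lies on the minus strand of chromosome 17 from 23629458 to 23645269. Its TPM was 100.5, 92.9, 124 and 123.5 in WT, 51.4, 54.7, 84.0 and 86.3 in *Gpr124ΔC/ΔC*, and 41.6, 30.3, 37.1 and 41.5 in *Gpr124-/-*, so that the groups were separated in the reverse order of *Mmp2*. *Mmp25* fell by 1.59 in *Gpr124-/-* (SE 0.15, edgeR adjusted p = 9.15e-06) and by 0.76 in *Gpr124ΔC/ΔC* (SE 0.15, adjusted p = 0.0092), and it was lower in *Gpr124-/-* than in *Gpr124ΔC/ΔC* by 0.83 (SE 0.15, adjusted p = 0.0044). In the 2 genotypes that letters J and L share, the J libraries were lower than the L libraries, and within letters the difference from WT was -0.91 in J, -0.64 in L and -1.62 in K. The fall in *Gpr124ΔC/ΔC* did not pass in 3 limma fits, at a pseudocount of 1 (-0.69, adjusted p = 0.102), at 0.1 (-0.70, 0.119) and unfiltered (-0.69, 0.145). The difference between the mutants was lost with the letter as a term (-0.82, adjusted p = 0.144) and without letter M (-0.74, adjusted p = 0.573).

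*Mmp11* encodes stromelysin-3, which is activated inside the cell by furin-type proteases. Its TPM ran from 8.38 to 10.2 in WT, 9.73 to 12.8 in *Gpr124ΔC/ΔC* and 9.61 to 12.5 in *Gpr124-/-*. The ranges overlapped. The log2 fold change was 0.27 in *Gpr124-/-* (95% interval -0.03 to 0.57, edgeR adjusted p = 0.207) and 0.21 in *Gpr124ΔC/ΔC* (-0.08 to 0.51, adjusted p = 0.577), so changes as large as those of *Mmp14* in *Gpr124-/-* lie outside the intervals.

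**Figure D3:**
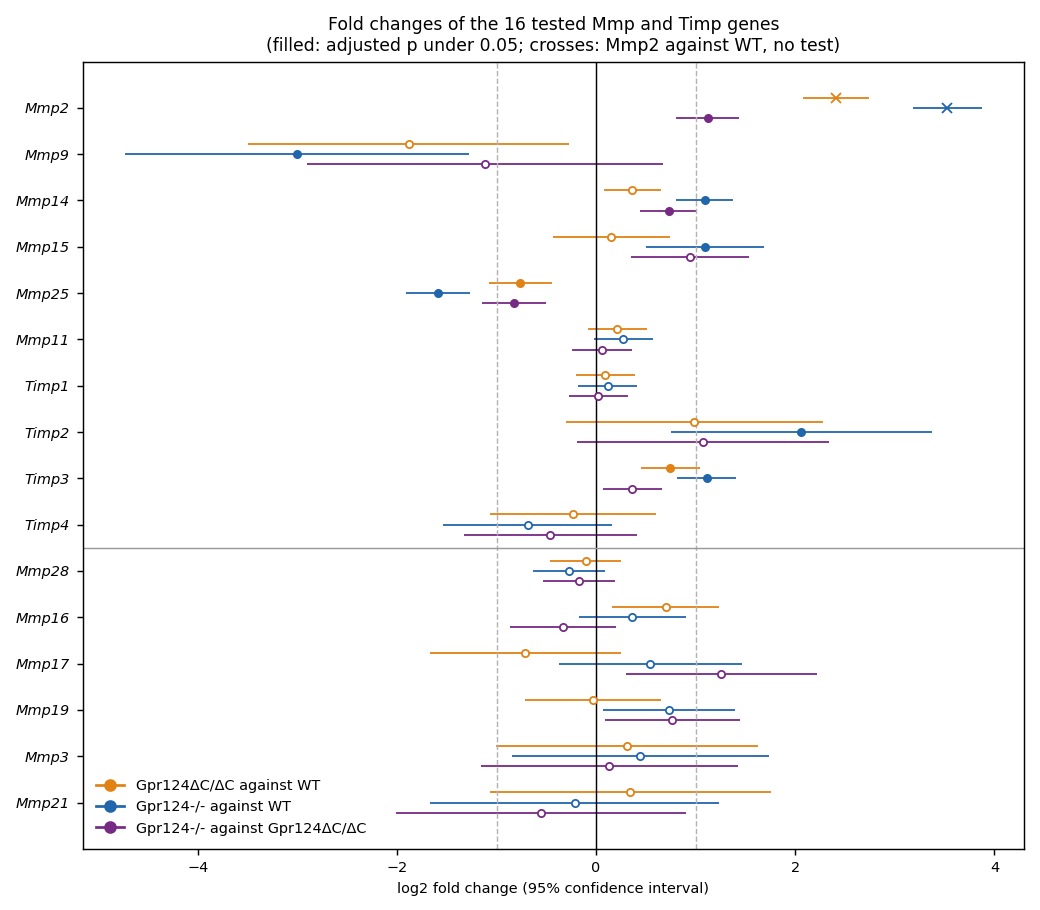
Log2 fold change with its 95% interval in 3 comparisons for the 10 genes (above the line) and the 6 other tested *Mmp* genes (below it), with dashed lines at the fold threshold of 1. Filled circles mark an adjusted p under 0.05, and crosses mark *Mmp2* against WT, which is not tested; *Mmp9* and *Timp2* have the widest intervals of the 10, and none of the 6 other genes is filled.

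Among the inhibitors, *Timp3* rose in both mutants and *Timp2* in *Gpr124-/-*, while *Timp1* and *Timp4* did not pass in any comparison. *Timp3* encodes the TIMP that binds to the extracellular matrix and that also blocks ADAM and ADAMTS proteases. It lies on the plus strand of chromosome 10 from 86300372 to 86349506, inside *Syn3*, a synapsin gene of neurons on the other strand. Its TPM was 47.5, 45.4, 73.2 and 52.2 in WT, 69.6, 103.6, 116 and 99.7 in *Gpr124ΔC/ΔC*, and 142, 108, 128 and 107 in *Gpr124-/-*. In TPM, WT KE8 lay above *Gpr124ΔC/ΔC* JE3, the library rich in *Gm23935*, and *Gpr124ΔC/ΔC* LE2 above 2 *Gpr124-/-* libraries, whereas in CPM no 2 genotypes overlapped. *Timp3* rose by 1.11 in *Gpr124-/-* (SE 0.14, edgeR adjusted p = 8.86e-05) and by 0.75 in *Gpr124ΔC/ΔC* (SE 0.14, adjusted p = 0.00689). The difference between the mutants was 0.37 (95% interval 0.07 to 0.66) and did not pass (adjusted p = 0.123), except without WT KE8 (0.38, adjusted p = 0.0369). The rise in *Gpr124ΔC/ΔC* did not pass in 2 limma fits, the one with a pseudocount of 0.1 (adjusted p = 0.0556) and the unfiltered one (0.0659), and that in *Gpr124-/-* was 0.91 with the letter as a term, under the fold threshold. Within letters *Timp3* stood above WT by 0.82 in J, 0.94 in L and 0.90 in K. The 1 WT library of K, KE8, had the highest fibroblast and pericyte marker sums of all libraries, 68.8 and 87.6 TPM. The part of those cells was not tested.

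*Timp2* encodes the TIMP that takes part in the activation of MMP2, as well as inhibiting it. It lies on the minus strand of chromosome 11 from 118301069 to 118355740. Its TPM was 7.41, 8.20, 3.32 and 3.63 in WT, 21.4, 15.9, 4.53 and 3.73 in *Gpr124ΔC/ΔC*, and 11.6, 19.3, 32.6 and 34.8 in *Gpr124-/-*. The J libraries were the high ones of WT and of *Gpr124ΔC/ΔC*, and the L libraries of *Gpr124ΔC/ΔC* lay within the WT range. *Timp2* rose by 2.06 in *Gpr124-/-* (SE 0.60, edgeR adjusted p = 0.0291), 4.18-fold. In *Gpr124ΔC/ΔC* its log2 fold change was 0.99 (95% interval -0.30 to 2.27, adjusted p = 0.536), with a difference in mean log2 CPM of 1.19 within letter J and 0.07 within letter L, and WT KE8 entering only the fitted value. The call in *Gpr124-/-* was lost without each of WT JE1, KE8 and LE6 and *Gpr124-/-* ME4 and ME5 (adjusted p from 0.0507 to 0.0829), and it was lost with unfiltered limma (1.91, adjusted p = 0.0597) and with the letter as a term (1.75, adjusted p = 0.057). Without the 3 libraries of letter M it was 0.91 (adjusted p = 0.786), from the 1 *Gpr124-/-* library left.

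*Timp1* encodes a secreted TIMP that inhibits most soluble MMPs but is a weak inhibitor of membrane-type MMPs. It lies on chromosome X inside *Syn1*, on the plus strand from 20870166 to 20874735. Its TPM was 79.4, 79.3, 123 and 105 in WT, 93.5, 100.7, 125 and 116 in *Gpr124ΔC/ΔC*, and 98.9, 121, 107 and 101 in *Gpr124-/-*. The ranges overlapped throughout, and the log2 fold change was 0.12 in *Gpr124-/-* (95% interval -0.18 to 0.41, edgeR adjusted p = 0.624) and 0.09 in *Gpr124ΔC/ΔC* (-0.20 to 0.39, adjusted p = 0.887). *Timp4*, the fourth inhibitor, was at 0.235 to 1.10 TPM in the 12 libraries, from 8 to 43 reads. Its log2 fold changes were -0.69 (95% interval -1.53 to 0.16) and -0.23 (-1.06 to 0.60), and the first interval reaches past a fall of 1 on the log2 scale.

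Of the TIMP genes, 3 sit inside synapsin genes of the opposite strand, *Timp1* in *Syn1*, *Timp3* in *Syn3* and *Timp4* in *Syn2*. Exons of *Syn3* cover 1733 of the 8144 exon bases of *Timp3*, exons of *Syn2* cover 90 of 5894 in *Timp4*, and none of *Timp1* is covered. The kit does not mark strand, so reads in the shared bases cannot be assigned to one gene. *Syn3* was counted at 0.260 to 0.591 TPM and *Syn1* at 0.183 to 2.77 TPM, far under *Timp3* and *Timp1*, whereas *Syn2* at 1.61 to 4.43 TPM was above *Timp4*.

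The order of the levels changed with genotype. In WT the mean TPM fell from *Mmp14* (162 ± 15.1) through *Mmp25* (110 ± 15.9), *Timp1* (96.7 ± 21.3), *Timp3* (54.6 ± 12.7) and *Mmp15* (27.3 ± 8.31) to *Mmp2* (18.6 ± 3.56), with *Mmp11*, *Timp2*, *Mmp9* and *Timp4* below 10 TPM (SD, n = 4). The ranges of *Mmp25* and *Timp1*, of *Mmp15* and *Mmp2*, and of *Timp2* and *Mmp9* overlapped. In *Gpr124ΔC/ΔC*, *Timp1*, *Mmp2*, *Timp3* and *Mmp25* held ranks 2 to 5 and each overlapped the next. In *Gpr124-/-*, *Mmp2* was second after *Mmp14* and overlapped neither it nor *Timp3*, and *Mmp25* had gone to rank 6 at 37.6 ± 5.34 TPM.

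The TPM of all 23 *Mmp* genes summed to 421 ± 40.2 in WT, 526 ± 59.5 in *Gpr124ΔC/ΔC* and 760 ± 96.1 in *Gpr124-/-* (SD, n = 4). The share of *Mmp2* in that sum was 3.56% to 4.77% in WT, 17.1% to 23.9% in *Gpr124ΔC/ΔC* and 27.2% to 30.2% in *Gpr124-/-*. The share of *Mmp25* went the other way, from 24.6% to 28.8% in WT to 9.91% to 15.7% and then 4.17% to 6.03%. *Mmp14* kept the largest share, 36.2% to 49.5% over the 12 libraries. The 4 *Timp* genes summed to 158 ± 31.5, 218 ± 25.2 and 253 ± 10.2 TPM. The share of *Timp1* in this sum was 61.2% ± 2.79 in WT and 42.3% ± 4.33 in *Gpr124-/-*, with *Timp3* at 34.5% ± 1.79 and 47.8% ± 5.84.

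Both sums had higher means in the mutants, and the ratio of summed MMP to summed TIMP TPM was 2.14 to 3.01 in WT, 2.29 to 2.50 in *Gpr124ΔC/ΔC* and 2.69 to 3.70 in *Gpr124-/-*. The WT and mutant ranges overlapped. The ratio of *Mmp2* to *Mmp14* did not overlap between WT and either mutant, at 0.0885 to 0.132 in WT, 0.41 to 0.654 in *Gpr124ΔC/ΔC* and 0.55 to 0.676 in *Gpr124-/-*. The ratio of *Mmp2* to *Timp2* followed the label letter, at 1.94 and 2.08 in the WT libraries of letter J and 6.17 and 6.16 in those of K and L, and at 3.87 and 6.64 in J against 29.7 and 25.4 in L in *Gpr124ΔC/ΔC*. In *Gpr124-/-* it was 17.5 in K and 6.66 to 10.2 in M. These ratios compare RNA levels, carry no test and contain the value that chose *Mmp2*.

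**Figure D4:**
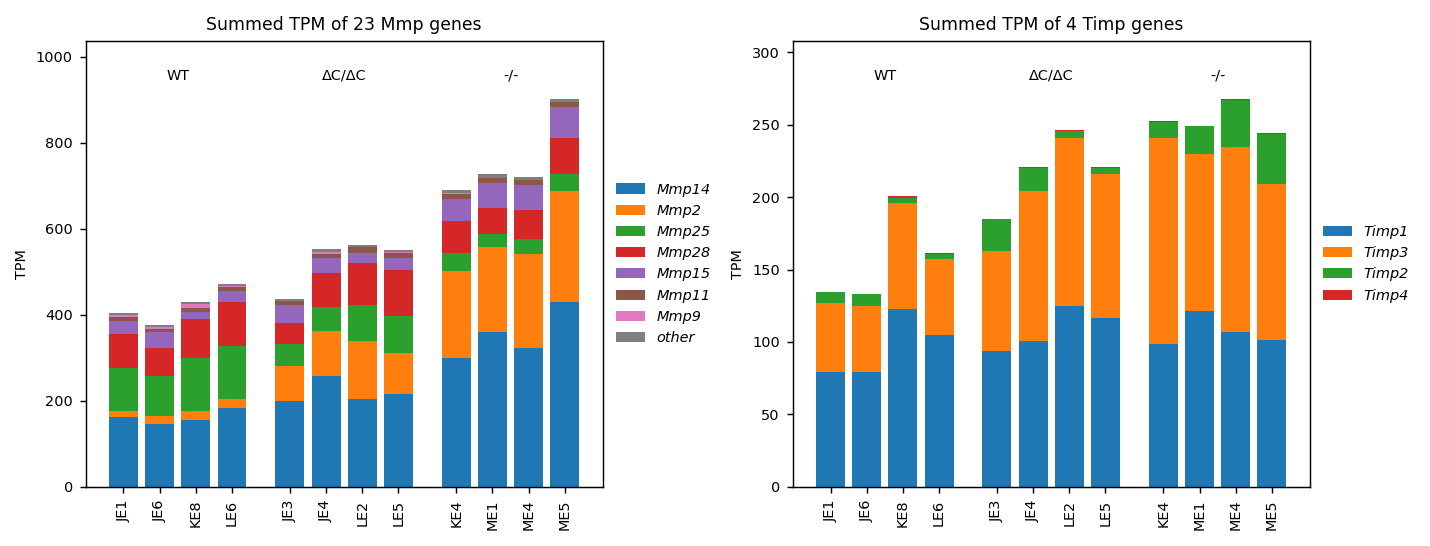
Stacked TPM of the *Mmp* genes (left, with 16 genes pooled as other) and of the *Timp* genes (right) in each of the 12 libraries, on axes from 0. The orange *Mmp2* block grew from under 5% of the MMP sum in WT to over 27% in *Gpr124-/-* while the green *Mmp25* block shrank, and the rise of the TIMP sum came with a larger *Timp3* block.

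The 10 genes are not the whole family. Of the 17 other *Mmp* genes, 6 passed the filter, *Mmp3*, *Mmp16*, *Mmp17*, *Mmp19*, *Mmp21* and *Mmp28*, and the other 11 reached at most 1.04 TPM in any library. With edgeR, none of the 6 had an adjusted p under 0.05 in any comparison, and 1, 1 and 2 of them had an unadjusted p under 0.05 in *Gpr124-/-* against WT, *Gpr124ΔC/ΔC* against WT and between the mutants. DESeq2 called *Mmp17* between the mutants (1.26, adjusted p = 0.039). *Mmp28*, which encodes the secreted protease epilysin, was the only abundant one, at 83.9 ± 15.3 TPM in WT, 83.2 ± 25.3 in *Gpr124ΔC/ΔC* and 70.9 ± 9.15 in *Gpr124-/-* (SD, n = 4). Its log2 fold change was -0.28 in *Gpr124-/-* (95% interval -0.64 to 0.09, adjusted p = 0.303) and -0.11 in *Gpr124ΔC/ΔC* (-0.47 to 0.25, adjusted p = 0.895). Of the 27 genes of the complete family 16 were tested, and the calls among the 15 other than *Mmp2* were the same 6 genes as above, 4 higher and 2 lower in *Gpr124-/-*, beside 5.67% and 4.21% of all genes. The median log2 fold change of the 15 was 0.36, and 2 of them, *Mmp3* and *Mmp21*, entered the test only with *Gpr124-/-*.

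The genes that activate MMPs or keep them in check were taken, with related proteases and substrates, as 5 lists written with earlier results known. Of their 52 tested genes, 20 were called higher and 1 lower in *Gpr124-/-*, beside 5.67% and 4.21% of all genes, and 2 in each direction in *Gpr124ΔC/ΔC*, beside 0.89% and 1.03%. Over the 45 that reached the filter's minimum in at least 4 libraries outside *Gpr124-/-*, 16 were called higher and 1 lower there, and 1 higher and 2 lower in *Gpr124ΔC/ΔC*. With the letter as a term the calls in *Gpr124-/-* were 8 higher and 3 lower, beside 846 of all genes in either direction, against 1644 without that term. Of 8 tested activators and members of the plasmin system, 2 were called higher and 1 lower in *Gpr124-/-*, and 1 lower in *Gpr124ΔC/ΔC*. *Plau*, which encodes urokinase, rose by 3.26 in *Gpr124-/-* (edgeR adjusted p = 0.000446) from 0.477 to 4.79 TPM. *Pcsk6*, a proprotein convertase, rose by 2.88 (adjusted p = 0.00345), also from a low level of 0.208 TPM. *Plau* reached the filter's CPM minimum of 0.589 in 0 WT, 2 *Gpr124ΔC/ΔC* and 4 *Gpr124-/-* libraries, so it passed the filter only with the group where it is high, while *Pcsk6* reached it in 1, 3 and 4. With the letter as a term, and without letter M, none of the 8 was called higher with edgeR. *Bsg*, which encodes basigin, a membrane glycoprotein also known as an inducer of MMPs and abundant in brain endothelium, fell by 2.45 in *Gpr124-/-* (adjusted p = 2.50e-07) and by 1.74 in *Gpr124ΔC/ΔC* (adjusted p = 2.14e-05). Its mean was 7396 TPM in WT, 2347 in *Gpr124ΔC/ΔC* and 1389 in *Gpr124-/-*. *Reck* did not pass, at -0.28 (adjusted p = 0.201) and -0.04 (adjusted p = 0.963).

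Of 7 tested genes for other inhibitors and clearance, 3 were called higher in *Gpr124-/-*, beside 5.67% of all genes, 1 with the letter as a term and 1 without letter M. In *Gpr124ΔC/ΔC* edgeR called none, beside 0.89% of all genes higher and 1.03% lower (2 had an unadjusted p under 0.05), and DESeq2 called 1. The 3 were *Thbs2* (2.94, edgeR adjusted p = 4.49e-05) and *Thbs1* (2.36, adjusted p = 0.0014), whose thrombospondins bind MMP2 and carry it to a scavenger receptor, and *Tfpi2* (1.97, adjusted p = 0.000267), a Kunitz-type inhibitor of serine proteases. *Thbs1*, which platelets also hold, went from 73.5 TPM in WT to 111 and 380. Beside it, the platelet marker sum stood highest in the same genotype, and its part was not tested.

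Among 8 tested ADAM genes, 2 were called higher in *Gpr124-/-*, beside 5.67% of all genes, and 1 of them, *Adam12*, also in *Gpr124ΔC/ΔC*, beside 0.89%. *Adam12*, a membrane-bound disintegrin protease, rose by 3.62 (edgeR adjusted p = 1.45e-05) and 1.68 (adjusted p = 0.0134), from 1.38 to 17.5 and 4.61 TPM, and *Adam19* rose by 1.01 in *Gpr124-/-* (adjusted p = 0.000165). Among 15 tested ADAMTS genes, secreted proteases of the matrix, 7 were called higher in *Gpr124-/-* and none lower, beside 5.67% and 4.21%, which went to 2 with the letter as a term and 3 without letter M. In *Gpr124ΔC/ΔC* 1 was called in each direction, beside 0.89% and 1.03%, *Adamts16* higher (1.70, edgeR adjusted p = 0.0467) and *Adamts8* lower. The largest changes were those of *Adamts16* (2.99, adjusted p = 0.000152), *Adamts14* (2.12, 0.0012) and *Adamts17* (2.0, 0.021), all under 1 TPM in mean, and of *Adamts4* (1.66, 0.00738), an aggrecanase that went from 17.1 to 55.0 TPM. *Adamts16* and *Adamts14* reached the filter's CPM minimum in 0 of 8 libraries of WT and *Gpr124ΔC/ΔC* and *Adamts17* in 2 of 8, against 4 of 4 in *Gpr124-/-*, so these 3 entered the test only with the group where they are high. Of the 10 ADAMTS genes that reached the minimum in at least 4 libraries outside *Gpr124-/-*, 4 were called higher in *Gpr124-/-*, and in *Gpr124ΔC/ΔC* none higher and 1 lower.

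The proteins that MMPs cut in the basement membrane were read as 14 genes, all tested. In *Gpr124-/-*, 6 were called higher and none lower, beside 5.67% and 4.21% of all genes, with 3 higher and 1 lower under the letter term and 1 in each direction without letter M. In *Gpr124ΔC/ΔC* edgeR and DESeq2 called none, beside 0.89% and 1.03%, while 2 passed at an adjusted p alone and 5 had an unadjusted edgeR p under 0.05. *Lamc1*, a laminin chain, rose by 1.63 (edgeR adjusted p = 0.00368), *Hspg2*, perlecan, by 1.39 (adjusted p = 5.02e-05), *Col4a1*, a chain of type IV collagen, by 1.22 (adjusted p = 0.000276) and *Col18a1*, the precursor of endostatin, by 1.19 (adjusted p = 0.000292). In *Gpr124ΔC/ΔC*, *Col18a1* was higher by 0.97 (adjusted p = 0.0052), with a difference between the mutants of 0.22 (adjusted p = 0.464), and *Hspg2* by 0.66 (adjusted p = 0.0352), whereas *Lamc1* was at 0.27 (adjusted p = 0.849) and *Col4a1* at 0.35 (adjusted p = 0.394). Type IV collagen was abundant, with *Col4a1* at 1906 TPM in WT and 4546 in *Gpr124-/-*. The median log2 fold change in *Gpr124-/-* was 0.55 for activators, 0.50 for inhibitors, 0.40 for ADAM, 0.84 for ADAMTS and 0.70 for basement membrane genes, against -0.01 over all genes. Of the genes in these medians, 1 activator, 1 ADAM gene and 5 ADAMTS genes entered the test only with *Gpr124-/-*. The filter thus favors higher medians in those lists, and no median without these genes was taken.

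Genes next to *Mmp2* on chromosome 8 were read to see whether its difference was shared by the region. Of the 10 nearest tested genes, 5 on each side, *Crnde* and *Irx5* were called in *Gpr124-/-* and *Crnde* in *Gpr124ΔC/ΔC*. With the letter as a term, *Crnde*, *Irx5* and *Gnao1* were called in *Gpr124-/-* (3 of 10) and *Crnde*, *Irx5* and *Lpcat2* in *Gpr124ΔC/ΔC* (3 of 10). Over all genes, 846 and 428 were called under that term in the same 2 comparisons. *Crnde*, a long non-coding RNA that starts 501 kb before *Mmp2*, rose by 1.30 (edgeR adjusted p = 0.00192) and 1.34 (adjusted p = 0.00631). *Irx5*, a homeobox gene beside it, rose by 2.05 in *Gpr124-/-* (adjusted p = 0.0363), with 1.67 in *Gpr124ΔC/ΔC* (adjusted p = 0.208, and 1.59 with an adjusted p of 0.00282 under the letter term). Its call in *Gpr124-/-* was lost without each of WT JE6, KE8 and LE6 and *Gpr124-/-* ME1, ME4 and ME5 (adjusted p from 0.0585 to 0.0991), with unfiltered limma (0.0681) and without letter M (0.672). *Lpcat2*, whose start is 28.0 kb beyond that of *Mmp2*, was at 0.69 (adjusted p = 0.0935) and 0.91 (adjusted p = 0.0867), the second 1.09 with an adjusted p of 0.0361 under the letter term. Within 5 Mb on each side, 85 other genes were tested, of which 5 were called higher and 4 lower in *Gpr124-/-*, or 5.88% and 4.71% beside 5.67% and 4.21% of all genes, and the median log2 fold change was -0.04. In *Gpr124ΔC/ΔC* 1 of the 85 was called higher and 2 lower, or 1.18% and 2.35% beside 0.89% and 1.03%, with a median of 0.03. *Adgra2* itself lies on the same chromosome, 65.7 Mb away.

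**Figure D5:**
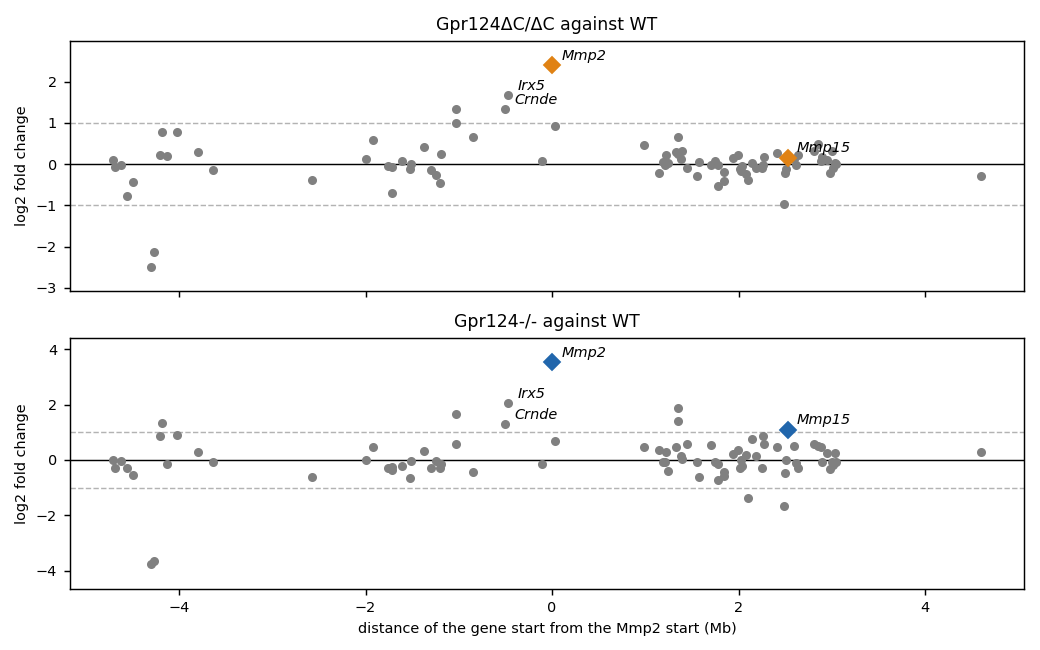
Log2 fold change of the 86 tested genes within 5 Mb of *Mmp2*, plotted against the distance of each gene start from that of *Mmp2*, in *Gpr124ΔC/ΔC* (top) and *Gpr124-/-* (bottom) against WT. *Mmp2* was the highest point in both panels, and *Mmp15*, 2.52 Mb away, lay above 1 only in the lower one.

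The genes whose log2 CPM over the 12 libraries was most like that of *Mmp2*, among non-members with a mean of at least 8 CPM, were *Gpr183* (r = 0.994), *Fam167b* (0.992), *Plpp3* (0.99), *Slc39a14* (0.987) and *Prx* (0.986). The 12 libraries fall into 3 genotypes, so these r values mostly repeat the differences between genotypes and are a description of likeness. *Gpr183*, an oxysterol receptor, went from 8.21 ± 0.821 TPM in WT to 30.7 ± 4.34 in *Gpr124ΔC/ΔC* and 58.9 ± 4.08 in *Gpr124-/-* (SD, n = 4). *Fam167b* went from 19.5 ± 2.79 to 86.4 ± 16.8 and 175 ± 18.0 TPM. *Plpp3*, a lipid phosphate phosphatase, had the same order but smaller steps, 152 ± 10.1, 242 ± 27.0 and 310.2 ± 10.2 TPM. Among the other 9 members, r with *Mmp2* was highest for *Timp3* (0.94) and *Mmp14* (0.868) and lowest for *Mmp25* (-0.913).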

How the data were processed

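CD31+ forebrain endothelial cells of 12 E15.5 embryos, 4 per genotype, were read by bulk RNA-seq after SmartSeq V4 amplification. The authors deposited raw counts of reads per Ensembl gene for each library and a table of TPM values, which equalled counts divided by exon length and scaled to a common total to within 0.00498%. The submitters' processing notes name bcl2fastq 2.17 and mm10; the aligner, the counter and the strand setting are not given in the sources used here. Symbols came from GENCODE vM21, where 49056 of 49315 identifiers were found and 259 were not. Promoter sequences came from RefSeq on GRCm38.p6.

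The counts were fitted with edgeR 4.0.16 in R 4.3.3 (filterByExpr by genotype with a count minimum of 10, a total of 15, a large n of 10 and a proportion of 0.7, TMM factors from 0.946 to 1.04, glmQLFit and glmQLFTest with all 12 libraries), and p values were adjusted over 16637 genes. Calls used the thresholds of the study, an adjusted p below 0.05 and a log2 fold change beyond 1 in either direction. Log2 CPM used a prior count of 2. The models were tested on simulated data. Total counts ran from 13877572 to 22551163, and the precision is limited by 4 embryos per genotype and, for *Mmp9* and *Timp4*, by low counts. The members and lists were chosen with earlier results of these data known. All 10 members were named, up to 4 called genes per list with the largest change, the 5 genes most like *Mmp2*, the 5 tested neighbors on each side of it, and *Adgra2*. *Reck*, *Mmp17*, *Mmp28*, *Irx3* and the called marker genes *P2ry12*, *Ltf*, *Rgs5*, *Abcc9*, *Higd1b* and *Kcnj8* were added after their values were seen. Alternatives were upper-quartile and relative log expression factors, no filter on low counts, DESeq2 1.42.0, the label letter as a term, only the 2 compared groups, limma 3.58.1 on log2(TPM + 1) with and without a filter at a mean of 1 TPM and on log2(TPM + 0.1), no fold threshold, and leaving out each library. TPM without *Gm23935*, a fit without JE6 and JE3, a fit without the 3 libraries of letter M, and counts over the 9 members other than *Mmp2* were added after seeing the data. Tables and plots were made with pandas 2.3.3 and matplotlib 3.10.9.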

Additional observations from a re-analysis of the deposited data

Results flagged for a closer look

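Differences between *Gpr124-/-* and *Gpr124ΔC/ΔC* past an adjusted p under 0.05 (edgeR quasi-likelihood, Benjamini-Hochberg) were found for 18 of the 41 named genes, beside 8.82% of all genes. Most of these were named for a difference from WT in the same *Gpr124-/-* libraries, and *Plau*, *Adamts14* and *Adamts16* entered the test only with those libraries, so their number is a description from which nothing is read. With the letter as a term, and without letter M, none of the 18 passed with edgeR, 11 and 13 had an unadjusted p under 0.05 and 18 and 18 kept their direction, and with DESeq2 17 passed. Of the MMPs, these were *Mmp2* (1.12), *Mmp14* (0.73) and *Mmp25* (-0.83) in log2 fold change, positive where *Gpr124-/-* was higher. Among activators and inhibitors they were *Plau* (1.99), *Bsg* (-0.71), *Thbs2* (1.65), *Thbs1* (1.85) and *Tfpi2* (1.67). Among ADAM and ADAMTS genes they were *Adam12* (1.93), *Adam19* (0.48), *Adamts16* (1.29) and *Adamts14* (1.63), and among basement membrane genes *Lamc1* (1.35), *Hspg2* (0.74) and *Col4a1* (0.87). Of the genes most like *Mmp2*, they were *Gpr183* (0.99), *Fam167b* (1.07) and *Plpp3* (0.40). These were picked for their likeness to *Mmp2* over the same libraries, so their difference between the mutants follows in part from the pick. Apart from *Mmp25* and *Bsg*, these 18 genes were higher in *Gpr124-/-* in the fit without a letter term. The letter M was found in *Gpr124-/-* only, and no letter held both mutants, so the mutants were compared within letters only through WT. No library stood apart by Dixon's test at its 95% critical value among the 30 sets of 4 libraries (10 genes in 3 genotypes).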

How the results depend on the processing

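Called members other than *Mmp2* numbered 6 in *Gpr124-/-* against WT, 0 in *Gpr124ΔC/ΔC* and 0 between the mutants (edgeR), with 2 to 6, 0 throughout and 0 to 1 without single libraries, 2 in the first with the letter term and 2 without letter M, 1 in the last without JE6 and JE3, and 2 in each of the last 2 at an adjusted p alone. *Mmp2* against WT, which chose the gene, adds a call that is no test, for 7 in *Gpr124-/-* (3 to 7 without single libraries, 3 with the letter term, 3 without letter M) and 1 in *Gpr124ΔC/ΔC* (3 at an adjusted p alone). Between the mutants the count with *Mmp2* was 1, and 1 to 2 without single libraries, 2 without JE6 and JE3, 0 with the letter term, 0 without letter M and 3 at an adjusted p alone. Other MMP calls were 0 to 1 without single libraries in *Gpr124-/-* against WT and between the mutants (1 with DESeq2). The 5 protease and substrate lists held 21, 4 and 11 calls in *Gpr124-/-*, *Gpr124ΔC/ΔC* and between the mutants. Without single libraries these were 17 to 25, 2 to 4 and 6 to 15, at an adjusted p alone 33, 10 and 20, without letter M 9, 2 and 0, and with the letter term 11 and 0 in the first and last. In *Gpr124ΔC/ΔC* they were 2 with only the 2 groups and 2 without JE6 and JE3, and between the mutants 6, 6 and 4 with limma at pseudocounts of 1 and 0.1 and unfiltered, and 6 without *Gm23935*. *Mmp2* neighbors gave 2 calls in *Gpr124-/-*, 1 to 2 without single libraries, 1 with unfiltered limma and 1 without letter M, 3 with the letter term, and 1 in *Gpr124ΔC/ΔC*, 3 with the letter term. All genes called were 1644, 320 and 766, with 1450 to 1824, 257 to 336 and 506 to 1008 without single libraries, 3295, 680 and 1468 at an adjusted p alone, 846 and 209 with the letter term (first and last), 516 and 17 without letter M, 201 in *Gpr124ΔC/ΔC* with unfiltered limma, and 470, 509, 395 and 477 between the mutants under the 4 limma fits.

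Apart from *Timp2* between the mutants, direction turned where the change was small. *Timp1* against WT in *Gpr124-/-* was -0.36 with the letter term and -0.0666 without letter M. Between the mutants *Timp1* was -0.0120 with upper-quartile factors, -0.54 with the letter term, -0.0177, -0.0178 and -0.0177 with limma at pseudocounts of 1 and 0.1 and unfiltered, -0.0560 without *Gm23935*, -0.15 without letter M, and -0.0642 to 0.0775 without single libraries. *Mmp11* there was -0.0199 without *Gm23935* and -0.0135 to 0.14 without single libraries, and *Timp2*, at 1.08 with all libraries, was -0.0747 without letter M. In *Gpr124ΔC/ΔC*, *Mmp15* ran from -0.0874 to 0.40 and *Timp4* from -0.42 to 0.16 without single libraries, and *Timp4* was 0.0615 with the letter term. Depth limits *Mmp9* and *Timp4*, at 3 to 220 and 8 to 43 reads. Without letter M, KE4 alone is left, and the letter term sets KE4 against KE8 alone, both then assumed to vary like the others. Of 663 refits of the members, *Mmp2* against WT left aside, 605 kept direction and side of the adjusted p threshold, of which 6 crossed the fold threshold, and the cause of the changes was not tested. No paired analysis was run, because the labels name no pairs, letter M held *Gpr124-/-* only and no letter held both mutants. The letter term is not a pairing, since the labels do not say what the letter means.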
